A study of Homo sapiens with 8 samples.

Results

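The SLC25 genes encode the mitochondrial carrier family, and all rows whose symbol was SLC25A followed by a number were taken, 48 of the 24252 genes in the tables. Family members listed under other symbols, such as UCP2, are not among them. The source was HaCaT, a human keratinocyte line from skin that grows without limit, with 4 libraries labelled Control and 4 labelled OGD-R. OGD-R cells carry the treatment OGD/R, which the labels do not spell out and which usually stands for loss of oxygen and glucose followed by their return, and they were taken at a stage described only as early. Control cells carry no treatment label. How long each phase lasted is not stated, nor whether a group's libraries are separate cultures, and p-values then reflect library-to-library spread alone, possibly of technical origin.

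Members of this family are encoded in the nucleus, made in the cytosol and inserted into the inner mitochondrial membrane, with a few in other membranes. Each moves a small set of metabolites, such as nucleotides, phosphate, carboxylates, amino acids, carnitine esters or cofactors, usually by exchanging one solute for another. They thereby link reactions of the cytosol, glycolysis and nucleotide synthesis among them, to respiration and the citric acid cycle in the matrix.

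Values were read as FPKM, fragments scaled to transcript length and to the library total, as the deposited unit is not written. Of the 48 members, 36 had a mean of at least 1 FPKM over the 8 libraries and were tested, among 11740 such genes in all. Every difference below is OGD-R minus Control on the scale log2(FPKM + 1), from limma fitted to all 11740 genes, with Benjamini-Hochberg adjusted p-values and a threshold of 0.05. The Control libraries fell in 2 places. Across genes, Controls 1 and 2 correlated with Controls 3 and 4 at 0.874 to 0.881, against at least 0.991 within each of these pairs and among the OGD-R libraries. The OGD-R libraries correlated with Controls 1 and 2 at 0.940 to 0.947 and with Controls 3 and 4 at 0.879 to 0.887. Controls 1 and 2 were thus closer to OGD-R than to Controls 3 and 4. Differences against each pair are therefore given beside the main one, and these fits share the 4 OGD-R libraries. Each of them holds only 2 Controls that lie close together, so its p-values leave out the spread between the pairs. The median SD of a gene on this log2 scale was 0.286 in Control and 0.0902 in OGD-R, and limma used 1 spread per gene for both groups. Transcripts of mitochondrial DNA took 17.5% to 21.9% of the summed FPKM in Control and 26.6% to 29.1% in OGD-R. Calls and signs of the main fit that changed when values were rescaled without them are therefore given. The fits against each pair of Controls were not rescaled, so differences against the pairs hold for the deposited values only.

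All 9 keratinocyte markers were expressed, with KRT5 between 1984 and 5130 FPKM and KRT14 between 3556 and 5526 FPKM. Of the 9, 3 rose (KRT5, KRT14 and DSG3) and 4 fell (KRT6A, ITGB4, LAMB3 and SFN), while KRT17 measured 2346, 2089, 9933 and 9796 FPKM in Controls 1 to 4 and 2084 to 2435 FPKM in OGD-R. Of 18 marker genes of fibroblasts, endothelium, melanocytes and immune cells, only COL1A1 and CD68 reached a mean of 1 FPKM, and CD68 fell by 1.81 (limma adjusted p = 7.41e-05). COL1A2 and TYR were at 0 in every library, and PTPRC was at most 0.0245 FPKM. The fibroblast markers summed to 0.876 to 8.72 FPKM in Control and 3.82 to 4.99 FPKM in OGD-R, and the immune markers, nearly all CD68, to 12.4 to 16.9 FPKM and 3.21 to 3.97 FPKM. The endothelial markers summed to 0.0645 to 0.146 FPKM in Control and 0.297 to 0.482 FPKM in OGD-R, and the melanocyte markers to 0.135 to 0.427 FPKM and 0.543 to 0.666 FPKM. The part of these differences in the results was not tested.

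Carrier RNA was dominated by a few genes. The 48 members summed to 1247, 1243, 938 and 865 FPKM in Controls 1 to 4 and to 1099, 1112, 1056 and 1055 FPKM in OGD-R 1 to 4. The OGD-R sums lay between those of Controls 1 and 2 and those of Controls 3 and 4. Scaled without mitochondrial genes, the sums were 1160, 1181, 925 and 897 FPKM in Controls 1 to 4 and 1092 to 1132 FPKM in OGD-R. SLC25A5, SLC25A3 and SLC25A6, an ADP/ATP carrier, the phosphate carrier and another ADP/ATP carrier, made up 55.2% to 59.3% of the sum in Control and 59.2% to 61.7% in OGD-R.

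**Figure D1:**
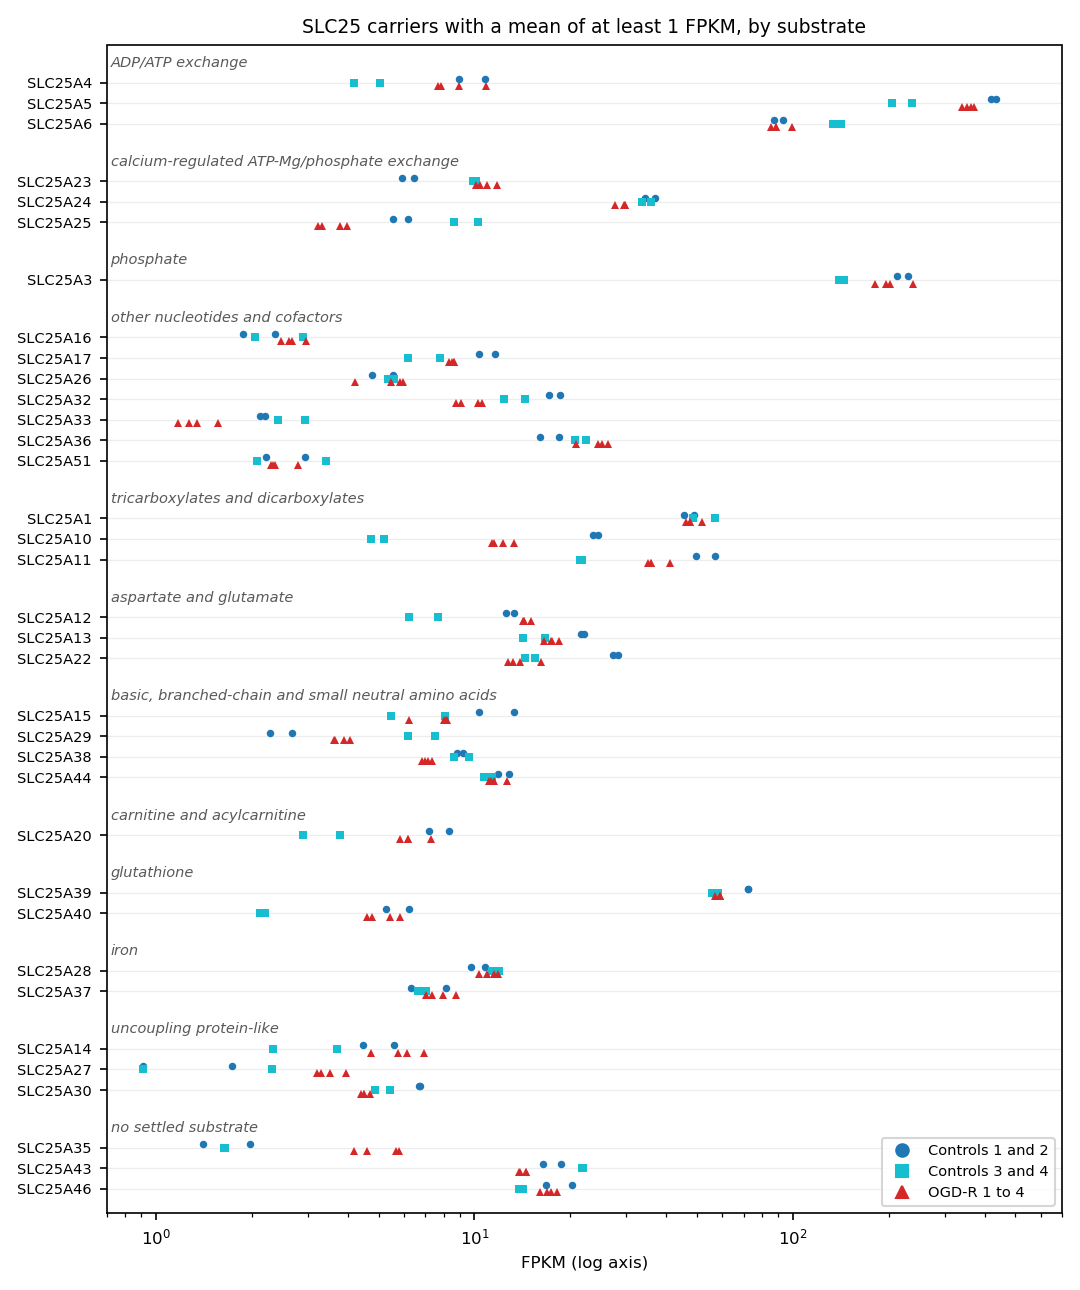
FPKM (log axis) of 35 carriers with a mean of at least 1 FPKM, grouped by substrate, with circles for Controls 1 and 2, squares for Controls 3 and 4 and triangles for OGD-R. SLC25A5 is the highest at 204 to 434 FPKM, and in 5 rows all triangles lie between the circles and the squares.

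Among the 36 tested members, 2 rose and 6 fell in OGD-R, and 28 did not pass. SLC25A35 and SLC25A27 rose, and SLC25A25, SLC25A32, SLC25A33, SLC25A43, SLC25A38 and SLC25A24 fell. Over all 11740 genes, 10.2% were called higher and 9.69% lower, 19.9% in all, against 5.56% and 16.7% of the members. The members' median difference was -0.0018 and that of all genes tested 0.02. Rescaled without mitochondrial genes, 2 members were called higher and 3 lower, while over all genes the split moved from 1202 higher and 1138 lower to 1600 and 871.

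For most carriers the outcome depended on which Controls were compared. Against Controls 1 and 2, 5 members were higher and 16 lower (13.9% and 44.4%), where 22.8% and 32.4% of all genes tested were called higher and lower, 55.2% in all. Against Controls 3 and 4, 13 were higher and 8 lower (36.1% and 22.2%), where the shares over all genes were 39.2% and 28.4%, 67.6% in all. The members' median difference was -0.14 against Controls 1 and 2 and 0.10 against Controls 3 and 4, beside -0.05 and 0.09 for all genes. Controls 1 and 2 both lay above Controls 3 and 4 for 19 of the 36 members (52.8%, against 48.1% of all genes) and below for 8 (22.2%, against 34.1%).

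**Figure D2:**
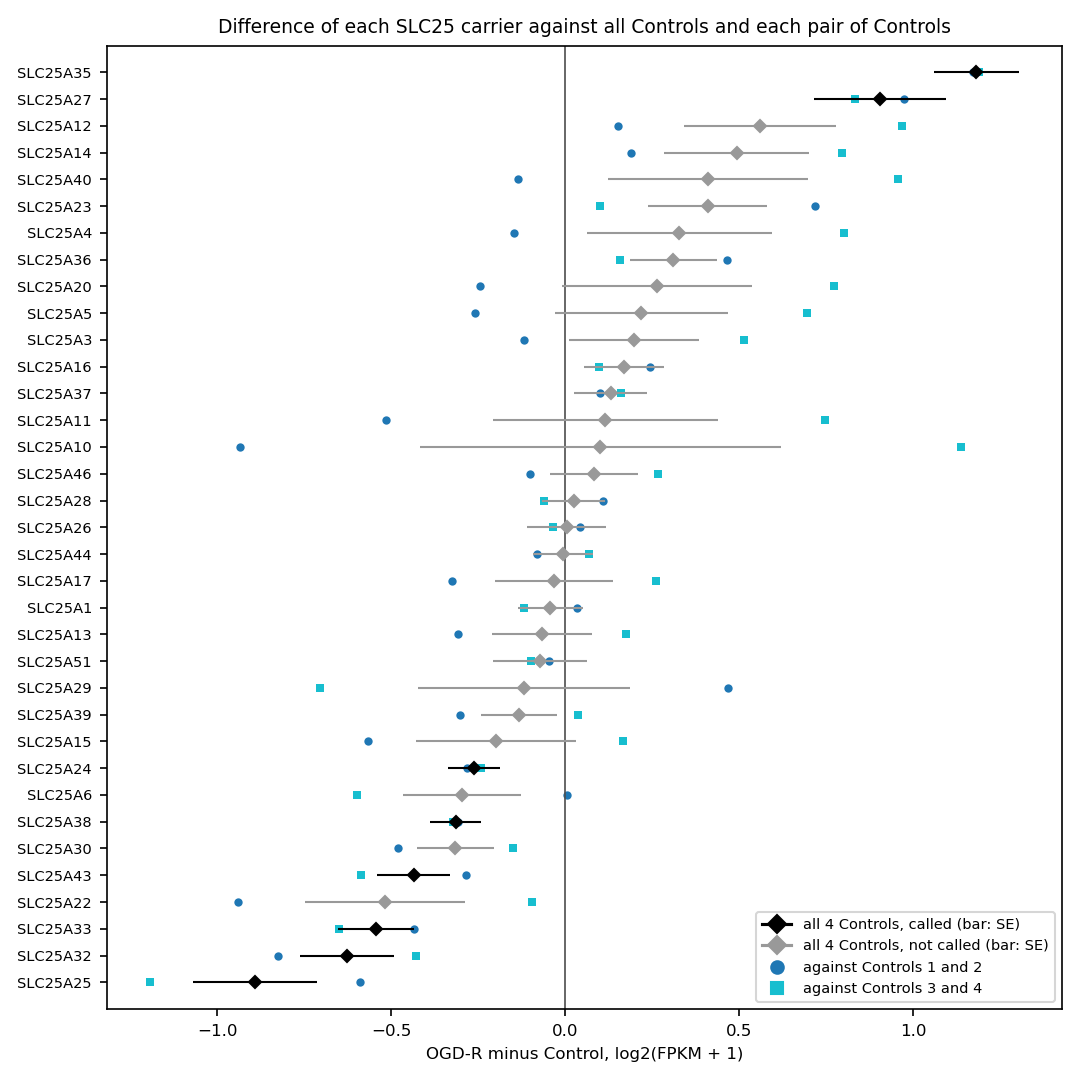
Difference of 35 tested carriers, OGD-R minus Control on the log2(FPKM + 1) scale, with diamonds and SE bars for all 4 Controls (black where called), circles against Controls 1 and 2 and squares against Controls 3 and 4. The 8 called carriers keep their side of 0 against either pair, whereas SLC25A10 runs from -0.94 to 1.14.

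The ADP/ATP carriers export the ATP made by respiration and bring ADP into the matrix, and none of the 3 tested passed (limma, 0 of 3 also at an unadjusted p of 0.05). SLC25A5, or ANT2, the form of growing cells (ENSG00000005022, chromosome X, 119468400 to 119471319, plus strand, GRCh38), measured 434, 419, 236 and 204 FPKM in Controls 1 to 4 against 372, 362, 352 and 340 FPKM in OGD-R 1 to 4. Every OGD-R library lay below Controls 1 and 2 and above Controls 3 and 4. Its difference was 0.22 (SE 0.248; limma adjusted p = 0.574), with -0.26 against Controls 1 and 2 (limma adjusted p = 0.00487) and 0.69 against Controls 3 and 4 (limma adjusted p = 3.93e-05). SLC25A6, or ANT3, a form found in most tissues, measured 93.4, 87.0, 142 and 134 FPKM in Controls 1 to 4 against 99.3, 85.5, 88.8 and 88.8 FPKM in OGD-R 1 to 4. Controls 3 and 4 were the high libraries here, the reverse of SLC25A5, and OGD-R overlapped Controls 1 and 2. The SLC25A6 difference was -0.30 (SE 0.17; limma adjusted p = 0.255), with 0.0055 and -0.60 against the 2 pairs.

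The make-up of the ADP/ATP carrier RNA therefore differed inside the Control group. SLC25A5 made up 80.7%, 81.4%, 61.7% and 59.7% of it in Controls 1 to 4 and 77.5% to 79.0% in OGD-R. SLC25A6 made up 17.4%, 16.9%, 37.0% and 39.0% in Controls 1 to 4 and 18.7% to 20.7% in OGD-R. SLC25A4, or ANT1, the main form of heart and muscle, measured 10.8, 8.92, 5.07 and 4.17 FPKM in Controls 1 to 4 against 7.70 to 10.9 FPKM in OGD-R, which overlapped Controls 1 and 2 and lay above Controls 3 and 4. SLC25A4 never passed 2.37% of the ADP/ATP carrier RNA. Pseudogenes named after SLC25A5 and SLC25A6 number 9 and 6 in GENCODE 29, and those after SLC25A1 and SLC25A15 number 5 each. How reads were divided among such copies is not given, so these levels are uncertain.

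**Figure D3:**
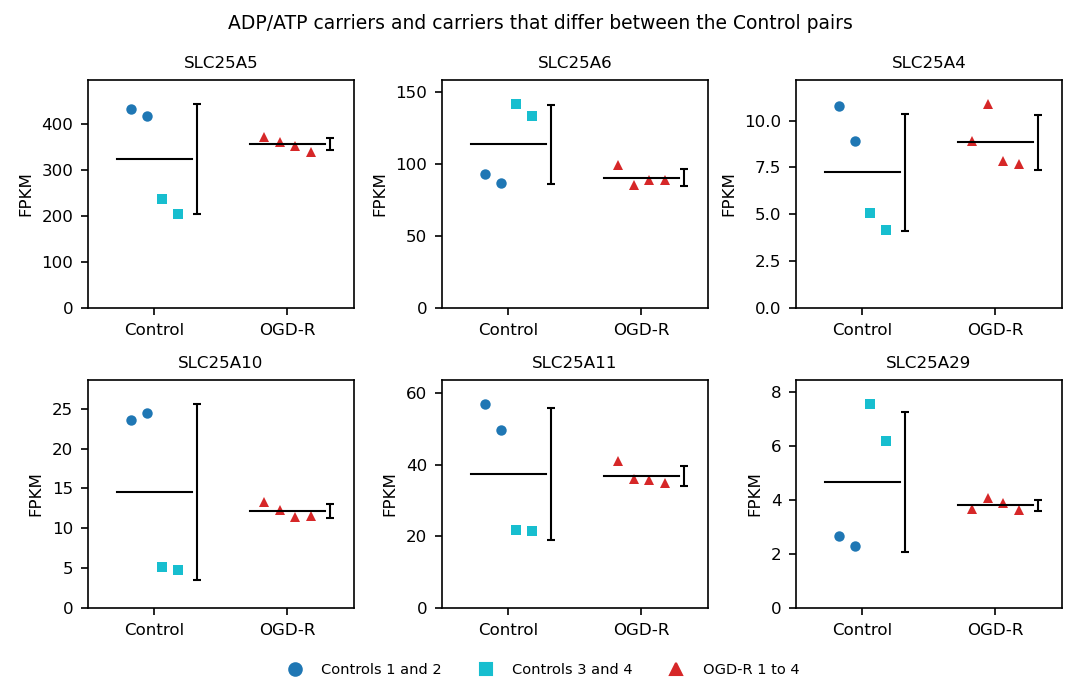
FPKM in each library (circles Controls 1 and 2, squares Controls 3 and 4, triangles OGD-R 1 to 4) with the mean (line) and SD (bar) per group, for the ADP/ATP carriers and 3 others. SLC25A5, SLC25A10 and SLC25A11 are high in Controls 1 and 2 and low in Controls 3 and 4, SLC25A6 and SLC25A29 the opposite, and the OGD-R libraries lie close together.

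SLC25A3, which brings the phosphate needed for ATP synthesis and also copper into the matrix, measured 212, 230, 139 and 145 FPKM in Controls 1 to 4. In OGD-R 1 to 4 it was at 181, 239, 202 and 196 FPKM, above Controls 3 and 4 and overlapping Controls 1 and 2. The difference of 0.20 did not pass (SE 0.186; limma adjusted p = 0.493), and was -0.12 and 0.51 against the 2 pairs.

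The calcium-regulated carriers exchange ATP-Mg for phosphate and so set the size of the adenine nucleotide pool in the matrix. Of the 3 tested, 2 fell (66.7%, against 9.69% of all genes), and groups this small do not give a result for the group. SLC25A25, or SCaMC-2 (ENSG00000148339, chromosome 9, 128068201 to 128109245, plus strand), measured 5.57, 6.18, 10.3 and 8.65 FPKM in Controls 1 to 4 against 3.98, 3.78, 3.22 and 3.31 FPKM in OGD-R 1 to 4. No OGD-R library reached the lowest Control. It fell by 0.89 (SE 0.177; limma adjusted p = 0.0109), with -0.59 and -1.19 against Controls 1 and 2 and Controls 3 and 4. NAIF1, on the opposite strand and overlapping it, was at 3.04 ± 1.53 FPKM in Control and 2.42 ± 0.344 FPKM in OGD-R (SD, n = 4 each), and whether counting used strand is not given.

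SLC25A24, or SCaMC-1, the most abundant of this group, measured 34.4, 36.9, 35.8 and 33.6 FPKM in Controls 1 to 4 against 29.4, 29.8, 27.7 and 29.7 FPKM in OGD-R 1 to 4. The groups did not overlap, and the 2 pairs of Controls overlapped. It fell by 0.26 (SE 0.0755; limma adjusted p = 0.0435). Without any single library other than Control 4 the call was lost (limma adjusted p = 0.0536 to 0.136) although the difference stayed at -0.27 to -0.24, and scaled without mitochondrial genes it was -0.19 (limma adjusted p = 0.102). Leaving out 1 OGD-R library also lowered the genes called higher overall from 1202 to between 711 and 744. SLC25A23, or SCaMC-3, stood the other way, at 5.91, 6.46, 9.93 and 10.1 FPKM in Controls 1 to 4 and 10.2 to 11.8 FPKM in OGD-R. All OGD-R libraries were above all Controls, yet close to Controls 3 and 4, and the difference of 0.41 did not pass (limma adjusted p = 0.134). CRB3, which overlaps SLC25A23 on the opposite strand, measured 9.63, 8.34, 18.5 and 15.7 FPKM in Controls 1 to 4 and 9.34 to 10.3 FPKM in OGD-R.

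Carriers of other nucleotides and cofactors gave 2 decreases among 8 tested (25%, against 9.69% of all genes). SLC25A32, linked to the supply of folate and FAD to the matrix (ENSG00000164933), measured 17.2, 18.6, 14.4 and 12.4 FPKM in Controls 1 to 4 against 9.10, 10.2, 8.77 and 10.6 FPKM in OGD-R 1 to 4. Its groups did not overlap, with Controls 1 and 2 the highest. It fell by 0.63 (SE 0.135; limma adjusted p = 0.0147), with -0.83 and -0.43 against the 2 pairs, and the call was lost without OGD-R 1 or OGD-R 3, where the difference was -0.60 and -0.59 (limma adjusted p = 0.0503 and 0.0544). DCAF13, which overlaps it on the opposite strand, was at 34.6 ± 7.35 FPKM in Control and 27.9 ± 1.95 FPKM in OGD-R (SD, n = 4 each) and did not pass (limma adjusted p = 0.235).

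SLC25A33 and SLC25A36 both carry pyrimidine nucleotides, used for RNA and DNA synthesis in mitochondria. SLC25A33 fell, whereas SLC25A36 had a positive difference that did not pass. SLC25A33 (ENSG00000171612, chromosome 1, 9539482 to 9585179, plus strand) measured 2.20, 2.12, 2.94 and 2.42 FPKM in Controls 1 to 4 against 1.27, 1.35, 1.18 and 1.57 FPKM in OGD-R 1 to 4. All OGD-R libraries lay below all Controls. It fell by 0.54 (SE 0.109; limma adjusted p = 0.0113), with -0.43 and -0.65 against the 2 pairs. SLC25A36 (ENSG00000114120, chromosome 3, 140941830 to 140980961, plus strand) measured 16.0, 18.4, 22.4 and 20.6 FPKM in Controls 1 to 4 against 20.8, 25.2, 24.4 and 26.4 FPKM in OGD-R 1 to 4. OGD-R 1 overlapped Controls 3 and 4, and the difference of 0.31 did not pass (SE 0.125; limma adjusted p = 0.119). Against Controls 1 and 2 it was 0.46 (limma adjusted p = 0.00342) and against Controls 3 and 4 it was 0.16 (limma adjusted p = 0.169).

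The stretches before the start sites of these 2 genes are shown because the pair shares a substrate while only SLC25A33 was called. Both were picked after the motif matches had been seen. They are from RefSeq on GRCh38.p14, 5′ to 3′ on the plus strand, at chr1:9539215-9539464 for SLC25A33 and chr3:140941586-140941829 for SLC25A36, without bases that GENCODE 29 places in an exon. Capitals mark matches on either strand to CACGTG (E-box), TGACGTCA (cyclic AMP response element), TGANTCA (AP-1), CCAAT and GGGCGG (GC box).
SLC25A33: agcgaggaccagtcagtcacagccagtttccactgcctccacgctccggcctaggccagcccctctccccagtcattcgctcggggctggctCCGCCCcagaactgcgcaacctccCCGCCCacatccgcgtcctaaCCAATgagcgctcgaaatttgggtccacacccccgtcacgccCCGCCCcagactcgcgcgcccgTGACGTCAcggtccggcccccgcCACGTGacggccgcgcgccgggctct
SLC25A36: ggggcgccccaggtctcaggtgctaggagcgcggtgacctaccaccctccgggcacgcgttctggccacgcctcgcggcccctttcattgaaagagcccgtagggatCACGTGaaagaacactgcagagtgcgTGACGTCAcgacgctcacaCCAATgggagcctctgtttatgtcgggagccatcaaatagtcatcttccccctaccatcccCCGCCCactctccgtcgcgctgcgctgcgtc
Both windows hold 1 E-box, 1 cyclic AMP response element and 1 CCAAT, with 3 GC boxes before SLC25A33 and 1 before SLC25A36. Windows of 250 bases before the start were matched by symbol for 40 of the 48 members. A cyclic AMP response element was present in 3 of these 40, the third being SLC25A25, and in 1.77% of all 27305 windows. An E-box was present in 7 of 40 and in 6.49% of all, a GC box in 28 of 40 and 42.3% of all, and CCAAT in 18 of 40 and 33% of all. The AP-1 letters were in 0 of 40 and 6.6% of all, and an NRF1 motif, also searched, was in 4 of 40 and 5.53% of all. The median GC content was 65.6% for the members' windows and 58% for all windows. These matches describe letters only.

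Other cofactor carriers did not pass. SLC25A17, a peroxisomal carrier of coenzyme A, FAD and NAD, measured 11.6, 10.3, 7.82 and 6.17 FPKM in Controls 1 to 4 against 8.656, 8.601, 8.5 and 8.34 FPKM in OGD-R 1 to 4. All OGD-R values lay between the 2 pairs, with differences of -0.32 (limma adjusted p = 0.00466) and 0.26 (limma adjusted p = 0.0286). SLC25A16 (coenzyme A), SLC25A26 (S-adenosylmethionine, the methyl donor) and SLC25A51 (NAD) had differences of 0.17, 0.0033 and -0.07, and their groups overlapped.

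Among the carboxylate carriers, SLC25A10 and SLC25A11 did not overlap between the pairs of Controls, whereas SLC25A1 did. SLC25A10, the dicarboxylate carrier, which exchanges malate or succinate for phosphate (ENSG00000183048, chromosome 17, 81712236 to 81721016, plus strand), measured 23.6, 24.5, 5.20 and 4.73 FPKM in Controls 1 to 4. In OGD-R 1 to 4 it was at 13.3, 12.3, 11.4 and 11.6 FPKM, between the pairs in every library. Its difference was 0.10 (SE 0.519; limma adjusted p = 0.91), made of -0.94 against Controls 1 and 2 (limma adjusted p = 1.37e-05) and 1.14 against Controls 3 and 4 (limma adjusted p = 2.38e-06). SLC25A11, the 2-oxoglutarate/malate carrier of the malate-aspartate shuttle, measured 56.9, 49.7, 21.8 and 21.4 FPKM in Controls 1 to 4 against 41.1, 36.0, 35.9 and 35.0 FPKM in OGD-R 1 to 4. It too lay between the pairs, with differences of -0.52 and 0.75 (limma adjusted p = 0.000737 and 2.42e-05). RNF167 overlaps SLC25A11 on the opposite strand and was higher in Controls 1 and 2 as well (62.9 and 61.9 against 44.2 and 40.1 FPKM).

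SLC25A1, the citrate carrier that supplies cytosolic acetyl-CoA for lipid synthesis, overlapped between the pairs. It measured 48.9, 45.4, 56.8 and 48.6 FPKM in Controls 1 to 4 against 51.8, 47.7, 46.2 and 47.7 FPKM in OGD-R 1 to 4. The groups overlapped, with a difference of -0.04 (SE 0.0935; limma adjusted p = 0.778). None of the 3 tested carboxylate carriers passed, also at an unadjusted p of 0.05 (limma, 0 of 3).

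The aspartate and glutamate carriers feed the malate-aspartate shuttle and glutamate oxidation, and none of the 3 tested passed (limma, 1 of 3 at an unadjusted p of 0.05). SLC25A12, or aralar, an aspartate/glutamate exchanger, measured 13.3, 12.6, 7.66 and 6.21 FPKM in Controls 1 to 4 against 15.1, 14.3, 14.3 and 14.2 FPKM in OGD-R 1 to 4. OGD-R was above every Control, and the difference was 0.56 (SE 0.219; limma adjusted p = 0.11), with 0.15 and 0.97 against the 2 pairs. Without Control 1 alone it was 0.71 and passed (limma adjusted p = 0.0462). HAT1, which overlaps SLC25A12 on the opposite strand, measured 66.0, 71.4, 25.5 and 23.7 FPKM in Controls 1 to 4 and 51.8 to 56.5 FPKM in OGD-R. SLC25A13, or citrin, the second such exchanger, measured 22.1, 21.6, 16.6 and 14.2 FPKM in Controls 1 to 4 against 18.4, 17.5, 16.6 and 17.4 FPKM in OGD-R 1 to 4. These overlapped Control 3, and the difference was -0.07 (SE 0.144; limma adjusted p = 0.777). SLC25A22, which imports glutamate, was at 27.2 and 28.2 FPKM in Controls 1 and 2, 15.5 and 14.5 FPKM in Controls 3 and 4 and 12.7 to 16.2 FPKM in OGD-R. OGD-R again overlapped Controls 3 and 4 (difference -0.94 against Controls 1 and 2 and -0.10 against Controls 3 and 4).

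Among carriers of other amino acids, 1 of 4 fell (25%, against 9.69% of all genes). SLC25A38, a glycine carrier needed for heme synthesis (ENSG00000144659, chromosome 3, 39383324 to 39397351, plus strand), measured 9.18, 8.83, 9.61 and 8.63 FPKM in Controls 1 to 4 against 6.99, 6.83, 7.37 and 7.15 FPKM in OGD-R 1 to 4. The groups did not overlap while the pairs of Controls did, with differences of -0.31 and -0.32. It fell by 0.32 (SE 0.0742; limma adjusted p = 0.0212). The call was lost without any single OGD-R library (limma adjusted p = 0.0581 to 0.0788), with differences of -0.33 to -0.30, and when scaled without mitochondrial genes, with -0.25 (limma adjusted p = 0.0524). SLC25A29, a carrier of basic amino acids, measured 2.68, 2.28, 7.54 and 6.19 FPKM in Controls 1 to 4 against 3.65, 4.06, 3.88 and 3.63 FPKM in OGD-R 1 to 4. Here Controls 3 and 4 were the high pair and OGD-R lay between, with differences of 0.47 (limma adjusted p = 0.00195) and -0.71 (limma adjusted p = 0.000119). SLC25A15, the ornithine carrier of the urea cycle, measured 13.3, 10.4, 8.06 and 5.49 FPKM in Controls 1 to 4 and 6.25 to 8.19 FPKM in OGD-R, and its difference of -0.20 did not pass. SLC25A44, which carries branched-chain amino acids, measured 11.9, 12.9, 11.4 and 10.7 FPKM in Controls 1 to 4 against 12.7, 11.3, 11.5 and 11.1 FPKM in OGD-R 1 to 4, with a difference of -0.0068 (SE 0.0868; limma adjusted p = 0.964).

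SLC25A20, which brings acylcarnitines into the matrix for fatty acid oxidation, measured 7.19, 8.32, 3.78 and 2.89 FPKM in Controls 1 to 4 against 7.30, 6.21, 5.85 and 6.18 FPKM in OGD-R 1 to 4. OGD-R was above Controls 3 and 4 and partly below Controls 1 and 2. The difference of 0.26 did not pass (SE 0.273; limma adjusted p = 0.535), with -0.25 and 0.77 against the 2 pairs.

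The glutathione carriers SLC25A39 and SLC25A40, which supply the matrix with its main thiol antioxidant, did not pass (limma, 0 of 2 also at an unadjusted p of 0.05). SLC25A39 measured 72.5, 72.2, 58.3 and 55.8 FPKM in Controls 1 to 4 against 58.8, 56.8, 59.2 and 59.2 FPKM in OGD-R 1 to 4. OGD-R overlapped Controls 3 and 4. The difference from Controls 1 and 2 was -0.30 (limma adjusted p = 0.00126). SLC25A40 was also higher in Controls 1 and 2, with 5.27 and 6.24 FPKM in Controls 1 and 2, 2.20 and 2.12 FPKM in Controls 3 and 4, and 4.60 to 5.82 FPKM in OGD-R. Here OGD-R overlapped Controls 1 and 2, and the difference from Controls 3 and 4 was 0.96 (limma adjusted p = 2.56e-05). DBF4, which overlaps SLC25A40 on the opposite strand, had the same order, with 11.1, 14.5, 4.42 and 5.80 FPKM in Controls 1 to 4 and 10.6 to 12.3 FPKM in OGD-R.

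The iron importers, or mitoferrins, which feed heme and iron-sulfur cluster synthesis, overlapped between groups. SLC25A28, or mitoferrin-2, measured 10.8, 9.78, 11.35 and 11.98 FPKM in Controls 1 to 4 against 11.9, 10.9, 11.5 and 10.3 FPKM in OGD-R 1 to 4. SLC25A37, or mitoferrin-1, the form of red cell precursors, was at 6.32 to 8.13 FPKM in Control and 7.03 to 8.75 FPKM in OGD-R. Their differences were 0.02 (SE 0.0903) and 0.13 (SE 0.104), and neither passed (limma, 0 of 2 also at an unadjusted p of 0.05).

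Of the 3 tested carriers related to uncoupling proteins, which let protons or anions cross the inner membrane, 1 rose (33.3%, against 10.2% of all genes). SLC25A27, or UCP4, known from brain (ENSG00000153291, chromosome 6, 46652915 to 46678193, plus strand), measured 1.73, 0.908, 2.32 and 0.910 FPKM in Controls 1 to 4 against 3.31, 3.53, 3.19 and 3.95 FPKM in OGD-R 1 to 4. Every OGD-R library was above every Control, and the high Controls were 1 and 3, not a pair. Its difference was 0.90 (SE 0.19; limma adjusted p = 0.0135), with 0.97 and 0.83 against the 2 pairs.

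SLC25A14, or UCP5, measured 5.61, 4.48, 3.69 and 2.33 FPKM in Controls 1 to 4 and 4.75 to 6.95 FPKM in OGD-R, which overlapped Control 1, and its difference of 0.49 did not pass (limma adjusted p = 0.138). SLC25A30, or KMCP1, measured 6.75, 6.67, 5.42 and 4.88 FPKM in Controls 1 to 4 against 4.71, 4.50, 4.41 and 4.50 FPKM in OGD-R 1 to 4. All OGD-R libraries were below all Controls, though close to Control 4. The difference was -0.32 (SE 0.109; limma adjusted p = 0.0784), and it passed without Control 4 (limma adjusted p = 0.0327) or with median ratio scaling (limma adjusted p = 0.0265).

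The clearest change of the family was in a carrier without a settled substrate. SLC25A35 (ENSG00000125434, chromosome 17, 8287763 to 8295343, minus strand) measured 1.98, 1.40, 1.65 and 1.63 FPKM in Controls 1 to 4 against 4.18, 4.59, 5.69 and 5.79 FPKM in OGD-R 1 to 4. The lowest OGD-R library was above the highest Control, and the pairs of Controls overlapped. Its level was 1.66 ± 0.238 FPKM over the 4 Controls and 5.06 ± 0.7995 FPKM over the 4 OGD-R libraries (SD), a difference of 1.18 (SE 0.122; limma adjusted p = 0.000628), with 1.17 and 1.19 against the 2 pairs. RANGRF overlaps SLC25A35 on the opposite strand. It measured 21.7, 24.2, 11.5 and 10.1 FPKM in Controls 1 to 4 and 13.8 to 18.6 FPKM in OGD-R, with a difference of -0.0076 (limma adjusted p = 0.987).

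SLC25A43 (ENSG00000077713, chromosome X, 119399060 to 119454478, plus strand) lies just before SLC25A5 on the same strand but did not share its pattern. It measured 16.5, 18.7, 21.9 and 21.8 FPKM in Controls 1 to 4 against 14.6, 13.9, 13.8 and 14.5 FPKM in OGD-R 1 to 4. OGD-R was below every Control, and Controls 3 and 4 were the high pair. It fell by 0.44 (SE 0.106; limma adjusted p = 0.0239), with -0.29 and -0.59 against the 2 pairs. The call was lost without Control 3 (-0.39, limma adjusted p = 0.0537), without any single OGD-R library (-0.45 to -0.42, limma adjusted p = 0.0616 to 0.0759) and when scaled without mitochondrial genes (-0.37, limma adjusted p = 0.0731). SLC25A46, an outer membrane protein of mitochondrial dynamics, was at 13.9 to 20.2 FPKM in Control and 16.0 to 18.2 FPKM in OGD-R, with a difference of 0.08.

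**Figure D4:**
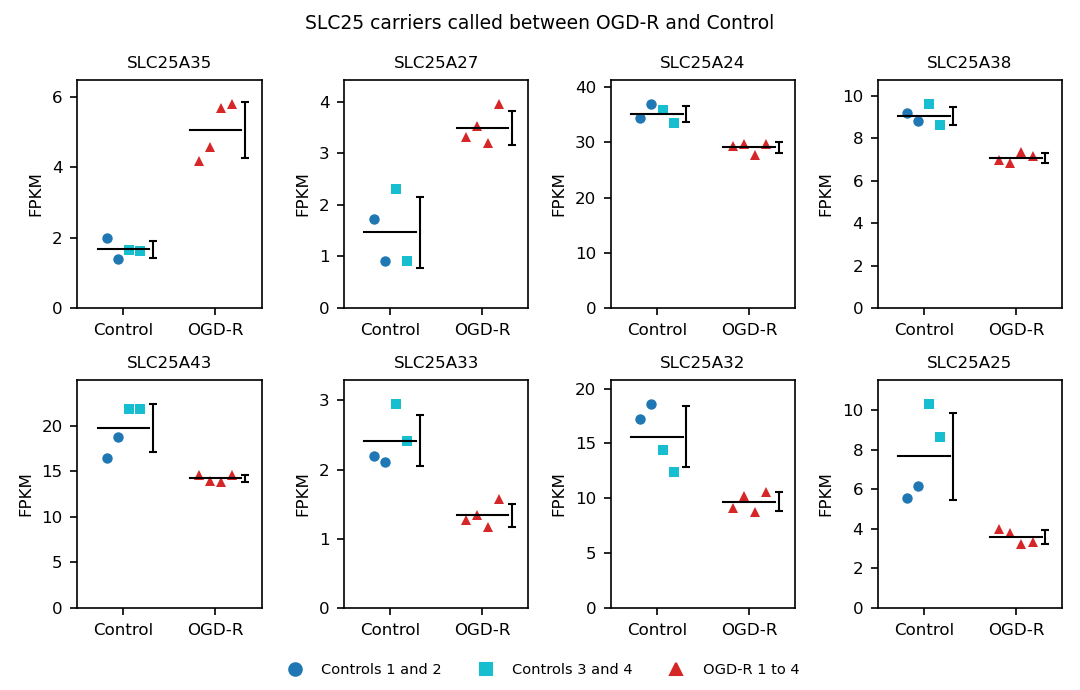
FPKM in each library (circles Controls 1 and 2, squares Controls 3 and 4, triangles OGD-R 1 to 4) with the mean (line) and SD (bar) per group, for the 8 carriers that passed the test, from the largest rise to the largest fall. In each panel the groups do not overlap, and the gap is widest relative to its level for SLC25A35 (1.40 to 1.98 against 4.18 to 5.79 FPKM).

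Over all tested members, the 4 OGD-R values were all above the Controls for 4 genes and all below for 7, which is 11.1% and 19.4% of the 36, against 15.2% and 14.8% of all genes tested. All OGD-R libraries lay between the 2 pairs of Controls for 5 (13.9%, against 20.4% of all genes). The remaining 20 overlapped in other ways.

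The 12 members below a mean of 1 FPKM were SLC25A2, SLC25A18, SLC25A21, SLC25A31, SLC25A34, SLC25A41, SLC25A42, SLC25A45, SLC25A47, SLC25A48, SLC25A52 and SLC25A53. SLC25A42, a coenzyme A carrier, measured 0.513, 0.878, 0.839 and 0.895 FPKM in Controls 1 to 4 and 0.772 to 1.05 FPKM in OGD-R, overlapping. SLC25A45, without a settled substrate, measured 0.310, 0.285, 0.622 and 0.589 FPKM in Controls 1 to 4 against 1.18, 0.785, 0.701 and 0.894 FPKM in OGD-R 1 to 4. These values did not overlap, and with the minimum lowered to 0.5 FPKM its difference of 0.38 did not pass (limma adjusted p = 0.061).

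SLC25A18, the second glutamate carrier, was at 0.286 to 0.488 FPKM in Control and 0.245 to 0.484 FPKM in OGD-R. SLC25A21, the oxodicarboxylate carrier, measured 0.334, 0.607, 0.0839 and 0.262 FPKM in Controls 1 to 4 and 0.333 to 0.774 FPKM in OGD-R, overlapping. SLC25A34 measured 0.0135, 0.0693, 0.156 and 0.0589 FPKM in Controls 1 to 4 and 0.152 to 0.356 FPKM in OGD-R, again overlapping. SLC25A41 and SLC25A52, relatives of SLC25A23 and SLC25A51, stayed at or below 0.191 and 0.127 FPKM. SLC25A2, the second ornithine carrier, SLC25A31, the ADP/ATP carrier of testis, SLC25A48 and SLC25A53 did not exceed 0.0910, 0.0279, 0.00885 and 0.0459 FPKM, and SLC25A47, known from liver, was at 0 in all 8 libraries. Members this low were not in the main test, and how many fragments their values rest on is unknown. With no minimum level, the SLC25A34 difference of 0.18 did not pass (limma adjusted p = 0.107), nor did the others that could be fitted.

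Other solute carriers and channels did not pass with all libraries. Of 20 such mitochondrial genes, 17 were tested and 0 passed, against 19.9% of all genes tested (limma, 1 of the 17 at an unadjusted p of 0.05). This list is not separate from the family, as UCP1, UCP2, UCP3, MTCH1 and MTCH2 belong to it under symbols outside the rule. Their median difference was 0.04, with -0.21 against Controls 1 and 2 and 0.31 against Controls 3 and 4. Among them MPC1 and MPC2, the subunits of the mitochondrial pyruvate carrier, were at 22.3, 18.1, 9.50 and 8.92 FPKM and at 18.0, 16.8, 7.72 and 6.77 FPKM in Controls 1 to 4. OGD-R lay at 16.9 to 18.0 FPKM and 15.5 to 17.1 FPKM, overlapping Controls 1 and 2 for MPC2 and between the pairs for MPC1. UCP2, the uncoupling protein of many tissues, was too low for the main test at 0.428, 0.336, 0.758 and 0.805 FPKM in Controls 1 to 4 and 1.08 to 1.43 FPKM in OGD-R. Its groups did not overlap, and with the minimum at 0.5 FPKM its difference of 0.50 passed (limma adjusted p = 0.0247).

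The machinery that brings carrier proteins through the outer membrane and inserts them into the inner one was tested with 16 genes. Of these 0 passed, against 19.9% of all genes tested (limma, 4 of the 16 at an unadjusted p of 0.05). Their median difference was -0.0052, with -0.32 against Controls 1 and 2, where 11 were lower (68.8%, against 32.4% of all genes), and 0.35 against Controls 3 and 4, where 10 were higher (62.5%, against 39.2% of all genes). TIMM22, the channel of the carrier translocase, measured 15.2, 13.3, 10.2 and 9.07 FPKM in Controls 1 to 4 against 8.79, 8.93, 8.38 and 9.01 FPKM in OGD-R 1 to 4. OGD-R lay just below Control 4, and the difference of -0.38 did not pass (limma adjusted p = 0.117). TOMM70, a receptor for carrier precursors, was at 26.2 to 46.4 FPKM in Control and 35.8 to 39.5 FPKM in OGD-R, with a difference of 0.08. The 13 messenger RNAs of mitochondrial DNA had 8 called higher (61.5%, against 10.2% of all genes) and 0 lower, with a median difference of 0.50. With no minimum level 0 were called, and without OGD-R 1 or OGD-R 4 it was 4.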

How the data were processed

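Total RNA of 8 HaCaT libraries was sequenced on an Illumina instrument, per the series' design text. Both NEBNext and SMARTer kits appear in the labels' protocols. For the aligner, counter, genome build and strand setting, nothing is given in the sources used here. Each library's deposited table holds gene ID, symbol and a value whose unit is not written, and these deposited values were read as FPKM: in 944 single-exon genes, 79 to 106 low values per library were searched for a step of 32 to 80 FPKM times bases, and 15 to 24 lay within 0.5% of the best step or its double. That window was set after seeing the values, so depth stays unknown and no counting interval is given. Any unit scaled to length could give such a step, so the search does not settle the unit. The values summed to between 428984 and 475385 per library.

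Samples were grouped by title. Members, substrate groups and gene lists were chosen with earlier results of these data known. All 48 members matched GENCODE 29 (GRCh38) by ID and symbol; 1 tested member is included in the counts but not reported here. Tests used limma 3.58.1 (R 4.3.3, intensity trend, no covariate) on log2(FPKM + 1), keeping genes whose mean reached 1 FPKM, a scale that understates changes of low genes. The fit was also tested on simulated data, where every library had the spread of the OGD-R libraries and the Controls had no pairs. That setting differs from the Controls here, so it does not show how the fit behaves with them. Values in every library are given for called members with a difference of at least 0.5, the highest member of each substrate group and members called in opposite directions against the Control pairs, and for others where they add to the account. Alternatives were pseudocounts of 0.1 and 0.5, other filters, each library or pair of Controls left out, a replicate block, 2 scalings and no trend. Any 2 libraries had at most 1 identical value above 0. Figures used matplotlib 3.10.9 in Python 3.11.15.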

Additional observations from a re-analysis of the deposited data

Results flagged for a closer look

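In 6 of 72 groups of 4 libraries (36 tested members in each condition), 1 library stood apart from the other 3, by Dixon's test. Chance flags about 1 group in 20, though where the Controls lie in 2 pairs a single Control can hardly stand apart. All 6 were OGD-R groups. SLC25A24 was at 27.7 FPKM in OGD-R 3, with the others at 29.4 to 29.8 FPKM. SLC25A51 was at 2.79 FPKM in OGD-R 4, against 2.30 to 2.36 FPKM. SLC25A11 was at 41.1 FPKM and SLC25A12 at 15.1 FPKM in OGD-R 1, against 35.0 to 36.0 FPKM and 14.2 to 14.3 FPKM. SLC25A15 was at 6.25 FPKM in OGD-R 3, against 8.02 to 8.19 FPKM. SLC25A39 was at 56.8 FPKM in OGD-R 2, against 58.8 to 59.2 FPKM. Of these members only SLC25A24 passed the test of OGD-R against Control, and without OGD-R 3 its adjusted p was 0.136 (limma).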

How the results depend on the processing

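The 8 called carriers kept their direction under all 18 alternatives, and only SLC25A35 kept its call under all of them. With the replicate block, 1 member was called higher and 0 lower, and over all genes 625 and 507. Deviations of same-numbered libraries from their group means correlated at 0.045 to 0.0646. Differently numbered libraries gave -0.106 to 0.1128, the highest being Control 4 with OGD-R 3, and Control 1 correlated best with OGD-R 2 (0.109). The Controls deviate largely as 2 pairs, so these correlations cannot settle whether the numbers pair the samples. Leaving out Controls 3 and 4 gave 5 members higher and 16 lower (all genes 2673 and 3807), 6 other carriers and channels were lower, and 11 import genes were lower. Leaving out Controls 1 and 2, 13 members were higher (all genes 4603 higher and 3337 lower), as were 10 other carriers and 10 import genes, with 1 import gene lower. Scaled without mitochondrial genes, 3 members were lower, and 1 other carrier and 1 import gene higher. With median ratio scaling 1 import gene was lower. With the minimum at 0.5 FPKM or no minimum, 1 other carrier was higher, and with no minimum 0 mitochondrial messenger RNAs were.

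With 1 library left out, 2 to 3 members were higher and 2 to 7 lower. The ranges were 711 to 1426 and 561 to 1312 for all genes, 4 to 9 for mitochondrial messenger RNAs higher, 0 to 1 for import genes in either direction and 0 to 1 for other carriers higher.

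No called member changed sign, whereas members that did not pass did. Without Controls 3 and 4 the differences of opposite sign were SLC25A4 -0.15, SLC25A5 -0.26, SLC25A6 0.0055, SLC25A3 -0.12, SLC25A1 0.0332, SLC25A10 -0.94, SLC25A11 -0.52, SLC25A29 0.47, SLC25A20 -0.25, SLC25A40 -0.14 and SLC25A46 -0.10. Without Controls 1 and 2 they were SLC25A17 0.26, SLC25A26 -0.0344, SLC25A13 0.17, SLC25A15 0.17, SLC25A44 0.0688, SLC25A39 0.0353 and SLC25A28 -0.0605. Scaled without mitochondrial genes they were SLC25A17 0.0360, SLC25A1 0.0301, SLC25A13 0.0042 and SLC25A44 0.0626, and with median ratio scaling SLC25A26 -0.0133. With 1 library left out, the ranges that crossed 0 were -0.0867 to 0.0187 for SLC25A1, -0.26 to 0.45 for SLC25A10, -0.10 to 0.36 for SLC25A11, -0.18 to 0.0179 for SLC25A13, -0.18 to 0.0911 for SLC25A17, -0.0436 to 0.10 for SLC25A26, -0.0249 to 0.0642 for SLC25A28, -0.34 to 0.12 for SLC25A29, -0.0450 to 0.0360 for SLC25A44 and -0.15 to 0.0229 for SLC25A51. The cause was not tested.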
